A study of Mus musculus with 4 samples.

Results

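The 10 genes described here are expressed in macrophages and were followed in cultured forelimb buds of mouse embryos with and without cyclopamine, a plant alkaloid that blocks Smoothened and with it the Hedgehog signal. They were selected by name from the 17568 genes of the deposited expression table: Csf1r, Cx3cr1, Ptprc, Fcer1g, Tyrobp, C1qa, C1qb, C1qc, Lyz2 and Aif1. All 10 were found, and all 10 were low. Their levels averaged between 0.486 and 4.597 normalized counts per 1000000 reads (CPM) over the libraries, and together they made up 928 recovered reads. Their summed level was 15.6 and 23.8 CPM in the cyclopamine libraries, against 19.6 and 18.1 CPM in the controls, so both controls lay between the cyclopamine libraries. None of the 8 genes abundant enough to test passed in either direction, and their 95% intervals reached from 0.223-fold (Lyz2) to 3.18-fold (Ptprc) of the control level.

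Macrophages of the early embryo descend from progenitors of the yolk sac and enter organ rudiments, the limb bud among them, as the vessels form. There they take up dying cells and debris. They depend on signalling through the receptor CSF1R, whose ligands are CSF1 and IL34. They recognise their targets with surface receptors that signal through small adaptor proteins carrying immunoreceptor tyrosine-based activation motifs (ITAMs), and they secrete C1q, the recognition component of the classical complement pathway.

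One group was wild-type Swiss Webster forelimbs grown in medium with cyclopamine, and the other was wild-type Swiss Webster forelimbs grown in control medium. Embryos of both groups were at E10.25, with 31 to 34 somites. The sources used here give no dose, vehicle or length of culture. Each group had 2 libraries, called biological replicates by the submitters, with no word on the embryos or limbs behind each, so p-values measure only the spread between these samples. The libraries held 12962633 and 12010965 gene-assigned reads in cyclopamine, against 9779589 and 13555492 in controls. The treatment labels were checked with Gli1, a transcription factor gene induced by the Hedgehog signal, at 8.05 and 4.70 CPM in cyclopamine against 56.2 and 56.7 CPM in controls (log2 fold change -3.10, SE 0.23, limma adjusted p = 4.32e-06). Limb identity was checked with the forelimb gene Tbx5 and the general limb mesenchyme gene Prrx1, which averaged 210 ± 23.3 and 714 ± 97.3 CPM in cyclopamine and 213 ± 16.6 and 592 ± 45.2 CPM in controls (SD, n = 2 each), whereas the hindlimb genes Tbx4 and Pitx1 were at 9.91 CPM or less in every library. Of the 6 limb mesenchyme genes listed, 0 passed in limma and 2 had an unadjusted p under 0.05: Hand2 at 69.3 and 59.96 CPM in cyclopamine against 90.1 and 96.0 CPM in controls (-0.53, SE 0.15, limma adjusted p = 0.332), and Fgf10, named after its values were seen, at 46.0 and 39.7 CPM in cyclopamine against 68.0 and 62.2 CPM in controls (-0.60, SE 0.16, limma adjusted p = 0.255). Limma called Hand2 and Fgf10 when the replicate number was fitted as a block. In whole limb buds, fewer macrophages and less RNA per macrophage cannot be told apart.

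Csf1r encodes the receptor tyrosine kinase that macrophages need for survival and growth. In CPM, not adjusted for length, it had the highest mean of the 10 genes, with 3.63 and 5.10 CPM in cyclopamine and 5.47 and 4.19 CPM in controls, from 46 to 63 reads a library. The lowest and the second highest value were both from cyclopamine, and the groups overlapped. In mm10, Csf1r lies on chromosome 18 at 61100598 to 61132149 on the plus strand. Its exons overlap those of Hmgxb3 on the opposite strand over 14.3% of the gene's 50-base windows. The sources used here do not say if counting took account of strand, so reads from the shared stretch cannot be told apart.

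Cx3cr1 encodes the receptor for the membrane-bound chemokine CX3CL1 and marks tissue macrophages and microglia. It measured 3.87 and 5.43 CPM in cyclopamine, against 4.23 and 3.67 CPM in controls. Cyclopamine 2 was highest and control 2 lowest, and the groups overlapped. It lies on chromosome 9 at 119901616 to 120069879 on the minus strand, with an exon of the antisense gene Gm33858 over it and 1.06% of its 50-base windows shared with other annotated genes. Ptprc encodes CD45, a receptor tyrosine phosphatase carried by white blood cells in general, macrophages included. It measured 0.789 and 3.16 CPM in cyclopamine and 1.03 and 1.54 CPM in controls. Cyclopamine 2 stood apart with 39 reads, and its 95% exact Poisson interval of 2.25 to 4.32 CPM lay above the intervals of cyclopamine 1 (0.378 to 1.45 CPM) and control 1 (0.495 to 1.90 CPM) and met that of control 2 (0.955 to 2.36 CPM). These intervals cover the counting error of reads only. Reads that carry no molecular identifier may come from a single molecule, in which case the intervals are too narrow.

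Fcer1g and Tyrobp encode the ITAM adaptors FcRγ and DAP12, short membrane proteins that pair with activating receptors of myeloid cells and recruit the kinase SYK. Fcer1g measured 1.89 and 2.19 CPM in cyclopamine and 1.86 and 1.40 CPM in controls, and was the only one of the 10 genes with both cyclopamine values above both controls. The margin was small: cyclopamine 1 with 24 reads stood at 1.893 CPM and control 1 with 18 reads at 1.857 CPM. Tyrobp measured 1.341 and 1.134 CPM in cyclopamine, against 1.341 and 1.616 CPM in controls. It was the only member with both cyclopamine values at or below both controls, and cyclopamine 1 and control 1 were equal to 3 decimals. Among all genes tested, 16.8% had both cyclopamine libraries above both controls and 15.8% had both below, which sums to 32.6%, and 36.6% of tested genes averaging 1 to 5 CPM did not overlap in either direction. The macrophage genes, with 1 in each direction out of 10, did not exceed that background. The reads of both adaptors summed to 3.23 and 3.32 CPM in cyclopamine and 3.20 and 3.01 CPM in controls, a narrow range. Neither adaptor shared a 35-base or 50-base window with another annotated gene.

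C1qa, C1qb and C1qc encode the 3 chains that assemble into C1q. They are neighbours on chromosome 4, all on the minus strand, at 136895917 to 136898803 (C1qa), 136880129 to 136886187 (C1qb) and 136889804 to 136893065 (C1qc). C1qb was the most even of the 10 genes, with 1.66 and 1.62 CPM in cyclopamine and 2.06 and 1.62 CPM in controls, a ratio of 1.28 between the highest and lowest library. C1qc measured 0.947 and 1.70 CPM in cyclopamine, against 1.03 and 1.25 CPM in controls. C1qa measured 0.473 and 0.891 CPM in cyclopamine and 0.413 and 1.32 CPM in controls, with the lowest and the highest value both among the controls and as few as 4 reads. Groups overlapped for all 3 genes. Per kilobase of the longest coding transcript in GENCODE vM21, the mean level over the 4 libraries was 1.60 CPM for C1qb, 1.02 for C1qc and 0.745 for C1qa. The C1qb range (1.49 to 1.90) lay above that of C1qc (0.787 to 1.41) and of C1qa (0.397 to 1.27), while the last 2 overlapped.

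Promoter windows of RefSeq, from 250 bases before to 50 after the transcription start, were matched for 7 of the 10 genes, leaving out C1qa, Csf1r and Tyrobp. They were searched on both strands for 3 overlapping forms of the purine-rich site bound by PU.1, the myeloid transcription factor encoded by Spi1. The form AGGAAGT was held by the windows of 4 of the 7 genes (C1qb, C1qc, Lyz2 and Ptprc) and by 9.35% of all 32851 windows. The longer GAGGAAGT was held by 1 of the 7 (C1qc) and by 3.2% of all windows. The shorter GAGGAA, which overlaps both, was held by 4 of the 7 (Aif1, C1qb, C1qc and Ptprc) and by 28.3% of all. The forms were chosen after the windows had been looked at, and a match describes letters, not binding. The surroundings of AGGAAGT are shown because C1qb, C1qc, Lyz2 and Ptprc share it, in GRCm38.p6, read 5′ to 3′ on the gene's strand (minus for all 4), with the match or its reverse complement in capitals. Ptprc held it at 2 places, of which the one farther from the start is shown. They lie at chr4:136886225-136886275 (C1qb), chr4:136893081-136893131 (C1qc), chr10:117282344-117282394 (Lyz2) and chr1:138175390-138175440 (Ptprc).
C1qb: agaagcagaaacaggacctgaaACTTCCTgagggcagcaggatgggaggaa
C1qc: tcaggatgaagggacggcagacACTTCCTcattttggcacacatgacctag
Lyz2: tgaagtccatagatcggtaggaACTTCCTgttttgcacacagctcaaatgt
Ptprc: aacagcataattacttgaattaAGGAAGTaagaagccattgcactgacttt

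Lyz2 encodes the lysozyme of macrophages, an enzyme that cleaves bacterial cell walls. It measured 0.473 and 2.35 CPM in cyclopamine, against 1.24 and 1.25 CPM in controls. The controls agreed closely, and the cyclopamine libraries lay on either side of them with 6 and 29 reads. Lyz2 has a close copy, Lyz1, next to it on chromosome 10 (117277331 to 117282321 for Lyz2, 117287797 to 117292868 for Lyz1, both on the minus strand). Their coding sequences differ at 22 of 444 bases, stop codon left out, with a longest identical run of 118 bases. Of the 35-base windows of Lyz2, 28.4% also occur in Lyz1, and of its 50-base windows 15.4%. Neither read length nor the handling of multiply mapping reads is stated, so the assignment between these genes is uncertain. Lyz1 had 2 and 4 reads in cyclopamine and 0 and 1 in controls. The 60-base stretch of a single exon with the most differences, coding bases 61 to 120, shows what a read needs to cover to tell them apart, with the 9 differing bases in capitals (GENCODE vM21 transcripts, minus strand, chr10:117282123-117282182 for Lyz2 and chr10:117292719-117292778 for Lyz1).
Lyz2: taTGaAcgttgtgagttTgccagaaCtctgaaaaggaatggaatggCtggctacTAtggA
Lyz1: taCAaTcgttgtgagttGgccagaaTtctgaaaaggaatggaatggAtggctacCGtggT

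Aif1 encodes IBA1, an actin-bundling calcium-binding protein and a standard stain for macrophages and microglia. In CPM, not adjusted for length, it had the lowest mean of the 10 genes, with 0.552 and 0.243 CPM in cyclopamine and 0.929 and 0.220 CPM in controls, from 7, 3, 9 and 3 reads. Control 1 was highest and control 2 lowest, so the groups overlapped. Aif1 lies on chromosome 17 at 35170991 to 35176068, on the minus strand.

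**Figure D1:**
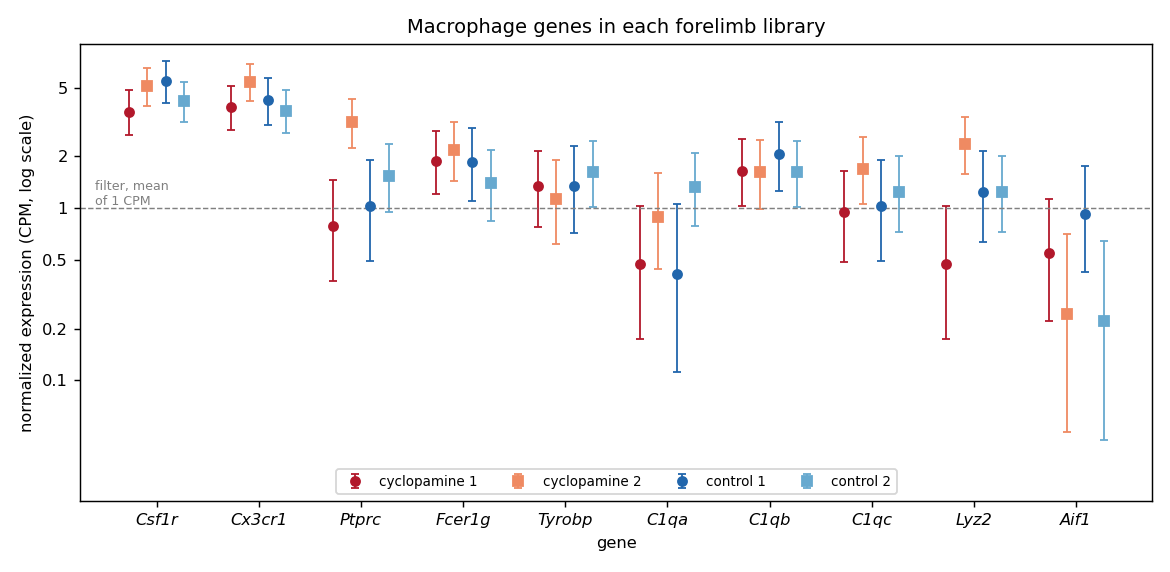
Normalized expression (CPM, log scale) of the 10 macrophage genes in the 2 cyclopamine and 2 control libraries, each point a library with its 95% exact Poisson interval for counting error. Groups overlap for 8 genes, and the points of cyclopamine 2 for Ptprc (3.16 CPM) and Lyz2 (2.35 CPM) stand above the other libraries.

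Between genes, levels can be set side by side only per length. Per kilobase of longest coding transcript, the means over the 4 libraries ran from 2.68 CPM for Fcer1g and 2.41 for Tyrobp, through C1qb (1.60), C1qc (1.02), Lyz2 (1.01), Csf1r (0.978), Cx3cr1 (0.957), C1qa (0.745) and Aif1 (0.556), down to 0.321 for Ptprc. Neighbours in this order whose ranges over libraries did not overlap were Tyrobp (2.01 to 2.87) and C1qb (1.49 to 1.90), and C1qb and C1qc (0.787 to 1.41). All other neighbours overlapped. In mean CPM the 10 genes stood between the 16.2 and 36.6 percentile of all genes in the table. Csf1r and Cx3cr1 made up 48.0% and 44.2% of the summed level in cyclopamine and 49.5% and 43.5% in controls.

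Since all 10 genes averaged under 5 CPM, their reads were also summed. The sum rested on 198 and 294 reads in cyclopamine and on 190 and 246 in controls. Its 95% counting intervals were 13.5 to 17.95 and 21.2 to 26.7 CPM in cyclopamine, against 16.9 to 22.6 and 15.9 to 20.5 CPM in controls. The intervals of the cyclopamine libraries thus did not overlap, with each read counted as a separate molecule, and the control intervals overlapped. The mean sum was 19.7 ± 5.80 CPM in cyclopamine and 18.8 ± 1.08 CPM in controls (SD, n = 2 each), a ratio of 1.05, and the difference is smaller than the spread between the cyclopamine libraries. It changed direction with the library left out, from a log2 ratio of -0.27 without cyclopamine 2 to 0.34 without cyclopamine 1. Ptprc and Lyz2 carried much of the excess of cyclopamine 2. Without this pair, left out after their values had been seen, the sum was 14.4 and 18.3 CPM in cyclopamine and 17.3 and 15.3 CPM in controls, a ratio of 1.002. The smallest two-sided p of an exact permutation of 2 against 2 libraries is 0.333, and no p is given for the sum.

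Gene by gene, limma on log2(CPM + 0.5) was fitted to the 13568 genes averaging 1 CPM or more. It called 38 of them at a Benjamini-Hochberg adjusted p under 0.05, which is 0.28% (6 or 0.0442% higher and 32 or 0.236% lower). Of the 10 macrophage genes, 8 reached the filter, and C1qa and Aif1 (means of 0.775 and 0.486 CPM) did not. Limma called 0 of the 8, 0 had an unadjusted p under 0.05, against 5.82% of all genes tested, and the same was so for all 10 genes in edgeR's exact test on recovered reads. Fold changes of 4 were positive and of 4 negative, beside 6921 positive and 6647 negative over all genes tested. The median log2 fold change of the 8 was 0.03, beside 0.005 for all genes tested and 0.05 for the 2569 tested genes averaging 1 to 5 CPM. The largest were 0.30 (SE 0.50) for Ptprc and 0.26 (SE 0.40) for Fcer1g on the positive side, and -0.19 (SE 0.43) for Tyrobp and -0.14 (SE 0.31) for Csf1r on the negative side. Fold changes on this scale understate the change of genes so near the floor of 3 reads, which is 0.237 and 0.243 CPM in cyclopamine and 0.310 and 0.220 CPM in controls.

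The 95% intervals of these changes, turned back from log2(CPM + 0.5) into CPM at each gene's control level, were wide. For Csf1r the interval ran from a 0.529-fold to a 1.49-fold level in cyclopamine relative to control, for Cx3cr1 from 0.685-fold to 1.92-fold and for Fcer1g from 0.568-fold to 2.50-fold. For C1qb it ran from 0.376-fold to 1.83-fold, for Tyrobp from 0.289-fold to 1.86-fold and for C1qc from 0.369-fold to 2.61-fold. Lyz2 (0.223-fold to 2.47-fold) and Ptprc (0.425-fold to 3.18-fold) had the highest standard errors of the 8. Given those errors, the CPM in cyclopamine would have had to be 3.20-fold that of control for Csf1r, 3.26-fold for Cx3cr1 and between 4.85-fold and 8.13-fold for the other 6 genes for a rise to pass in limma over all genes. For Tyrobp, C1qc, Lyz2 and Ptprc even a fall to 0 would not have passed, so a decrease of these 4 could not be called with this pseudocount and spread. The authors' deposited table gives all 10 genes a false discovery rate of 1, with p-values from 0.412 for Ptprc to 0.851 for Lyz2, beside 0.455% of its genes under 0.05. In the authors' deposited table Lyz2 has a log2 fold change of 0.18, whereas limma gave -0.07, SE 0.52.

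**Figure D2:**
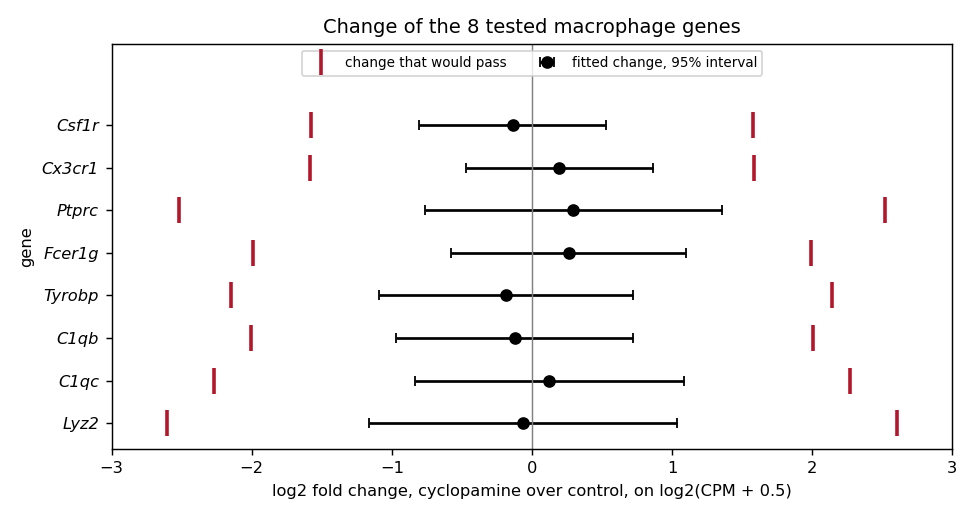
Log2 fold change (cyclopamine over control, on log2(CPM + 0.5)) of the 8 tested macrophage genes, with 95% intervals from limma as bars and, as red ticks, the change that would pass an adjusted p of 0.05 (for Tyrobp, C1qc, Lyz2 and Ptprc the left tick lies beyond a fall to 0). All 8 intervals include 0, and all 8 points lie between -0.19 and 0.30, inside the ticks.

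**Figure D3:**
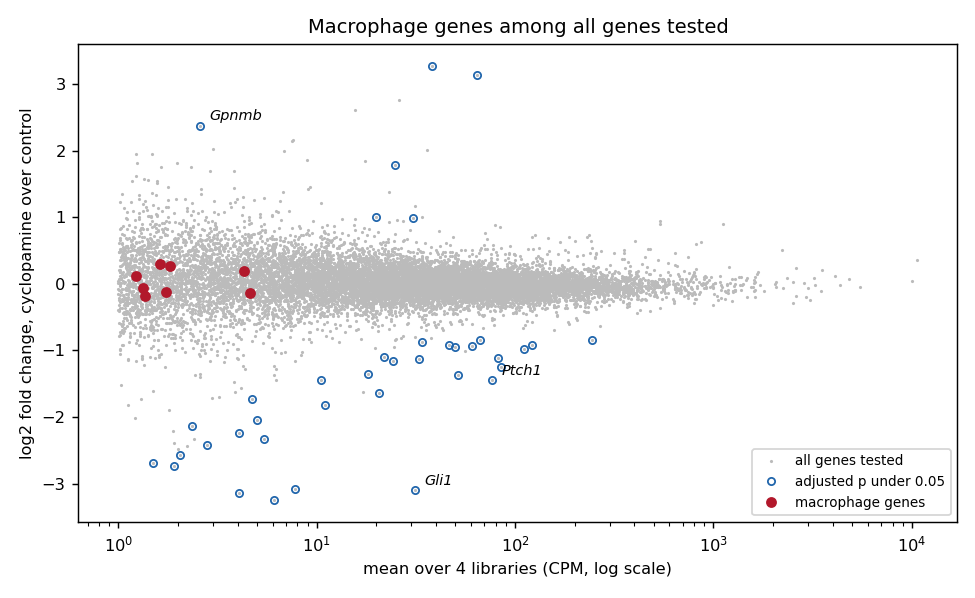
Log2 fold change (cyclopamine over control) against mean CPM (log scale) for the 13568 genes tested, with the 38 past an adjusted p of 0.05 circled and the 8 macrophage genes filled in red. The red points sit at the low end of expression near 0, while Gli1 at -3.10 and Gpnmb at 2.37 stand far from it.

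Other genes known from macrophages were read the same way, from a list of 34 of which 33 were found and 18 reached the filter. Limma called 0 of the 18, and 13 were higher and 5 lower, with a median log2 fold change of 0.26. Over all genes tested, 6921 were higher and 6647 lower. An unadjusted p under 0.05 was reached by 1 of the 18, beside 5.82% of all genes tested. That gene was Pld4, which encodes an endolysosomal nuclease, at 2.13 and 2.75 CPM in cyclopamine and 0.825 and 0.514 CPM in controls (1.34, SE 0.43, limma adjusted p = 0.481). Pld4, Emr1, Ctss and Alox5ap averaged 0.670, 0.919, 0.986 and 0.876 CPM in controls and reached the filter only through cyclopamine. Cd33, at 0.768 CPM in cyclopamine, reached it only through controls. The 4 most abundant, Tmem119, Lgmn, Mertk and Stab1, made up 74.8% of the list's summed level and are also expressed by cells other than macrophages. Tmem119 averaged 49.1 ± 2.80 CPM in cyclopamine and 39.6 ± 7.35 CPM in controls (SD, n = 2 each). With these 4 left out, after their values had been seen, the remaining 29 summed to 39.8 and 60.5 CPM in cyclopamine, against 41.3 and 43.6 CPM in controls. Cyclopamine 2 was again highest, and cyclopamine 1 lay below both controls. Among single genes picked after their values were seen, Emr1, the F4/80 antigen gene now named Adgre1, measured 1.03 and 2.92 CPM in cyclopamine and 0.516 and 1.32 CPM in controls. Cd14, a co-receptor for bacterial lipopolysaccharide, measured 1.34 and 4.78 CPM in cyclopamine, against 1.34 and 2.13 CPM in controls. Cd68, a lysosomal membrane glycoprotein gene, ran the other way, at 3.55 and 5.27 CPM in cyclopamine and 5.88 and 8.08 CPM in controls, and did not pass (-0.61, SE 0.30, limma adjusted p = 0.875).

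The ligands of the macrophage receptors did not pass. Of 5 tested ligand and chemokine genes, all 5 had positive fold changes (median 0.31), beside 6921 positive and 6647 negative over all genes tested. In limma 0 of the 5 passed and 2 had an unadjusted p under 0.05, beside 5.82% of all genes tested. Cx3cl1 and Ccl3 averaged 0.875 and 0.890 CPM in controls and reached the filter of 1 CPM only through cyclopamine. Csf1, the main ligand of CSF1R, measured 11.04 and 16.9 CPM in cyclopamine, against 6.91 and 10.1 CPM in controls (0.68, SE 0.27, limma adjusted p = 0.695). Cx3cl1, the ligand of CX3CR1, measured 2.05 and 3.16 CPM in cyclopamine and 0.722 and 1.03 CPM in controls (1.16, SE 0.42, limma adjusted p = 0.616). The groups did not overlap for either. Il34, the other ligand of CSF1R, had 6 and 4 reads in cyclopamine and 0 and 0 in controls and was under the filter. Cxcl12 and Tgfb1 had log2 fold changes of 0.13 (SE 0.15) and 0.14 (SE 0.27).

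Of 7 tested genes of myeloid transcription factors, 5 were higher and 2 lower (median 0.21), beside 6921 higher and 6647 lower over all genes tested. In limma 0 passed, while 2 had an unadjusted p under 0.05, beside 5.82% of all genes tested. Nr1h3 averaged 0.912 CPM in controls and reached the filter only through cyclopamine. Id3, a broadly expressed inhibitor of helix-loop-helix factors, had a log2 fold change of 0.42 (SE 0.17), Maf -0.05 (SE 0.26) and Runx1, needed for blood formation, -0.12 (SE 0.31). Spi1, listed under its older name Sfpi1, was at 0.473 and 0.405 CPM in cyclopamine and 0.516 and 0.735 CPM in controls, with 5 to 10 reads a library, and was not tested.

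The partners and kinases of the ITAM adaptors did not pass either. Of 15 found, 5 reached the filter, 0 passed in limma and 0 had an unadjusted p under 0.05, with 3 higher and 2 lower and a median of 0.04. Syk, whose kinase both adaptors recruit, measured 7.81 and 6.64 CPM in cyclopamine and 6.50 and 7.49 CPM in controls, and Lyn, a SRC family kinase gene, had a log2 fold change of 0.24 (SE 0.23). Plcg2, which encodes a phospholipase downstream of SYK, had -0.56 (SE 0.28, limma adjusted p = 0.875) and Vav1 0.33 (SE 0.40). The receptor genes Trem2 and Fcgr3, which pair with DAP12 and FcRγ, were under the filter.

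Complement genes other than C1q were higher in 10 of 11 tested cases, with a median of 0.50, beside 6921 higher of all 13568 genes tested. Of the 11, 0 passed limma's threshold and 2 had an unadjusted p under 0.05, beside 5.82% of all genes tested. C1ra, C2, C3 and Masp1 averaged 0.926, 0.478, 0.986 and 0.853 CPM in controls. These genes reached the filter of 1 CPM only through cyclopamine, which tilts the count and the median upward. The highest library was cyclopamine 2 in 9 of the 11. C3, the central complement component, measured 1.03 and 27.1 CPM in cyclopamine and 1.24 and 0.735 CPM in controls, so that only cyclopamine 2 departed from the rest (2.15, SE 0.83, limma adjusted p = 0.677). The authors' deposited table gives C3 a false discovery rate of 0.0489, and limma called C3 with the replicate number as a block. Masp1, a protease gene of the lectin pathway, had both cyclopamine libraries above both controls, at 1.74 and 3.24 CPM in cyclopamine against 0.825 and 0.882 CPM in controls (1.10, SE 0.43, limma adjusted p = 0.705). Cd93, Cr1l and Serping1, a C1 inhibitor gene, had fold changes of 0.06, -0.17 and 0.18 on the log2 scale (SE 0.20, 0.21 and 0.26).

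Genes of lysosomes and engulfment, many of them expressed by most cell types, held the only call among the lists. Gpnmb, a transmembrane glycoprotein gene of macrophages and pigment cells, rose to 4.97 and 4.29 CPM in cyclopamine, against 0.206 and 0.882 CPM in controls (2.37, SE 0.43, limma adjusted p = 0.0299). Gpnmb averaged 0.544 CPM in controls and reached the filter of 1 CPM only through cyclopamine. The call rests on reads from 2 to 63 a library. It ended on CPM of total reads, without the filter and without the intensity trend, and a filter of 5 CPM left the gene out. It held on DESeq2 size factors, with pseudocounts of 0.1 and 1 and with the replicate number as a block. Both edgeR tests and DESeq2 on recovered reads also called it. The authors' deposited table gives Gpnmb a false discovery rate of 7.7e-05. Limma called 1 of 17 tested genes, and 2 had an unadjusted p under 0.05, beside 5.82% of all genes tested. Of the 17, 14 were higher and 3 lower, with a median of 0.26, beside 6921 higher and 6647 lower over all genes tested. Both cyclopamine libraries were above both controls for 8 of the 17, beside the 16.8% of all genes tested. Ctsb, Psap and Npc2, abundant lysosomal genes, had log2 fold changes of 0.26 (SE 0.16), 0.30 (SE 0.16) and 0.23 (SE 0.16), and Lamp1 of 0.07 (SE 0.15). The difference between this list and the macrophage members was not tested.

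**Figure D4:**
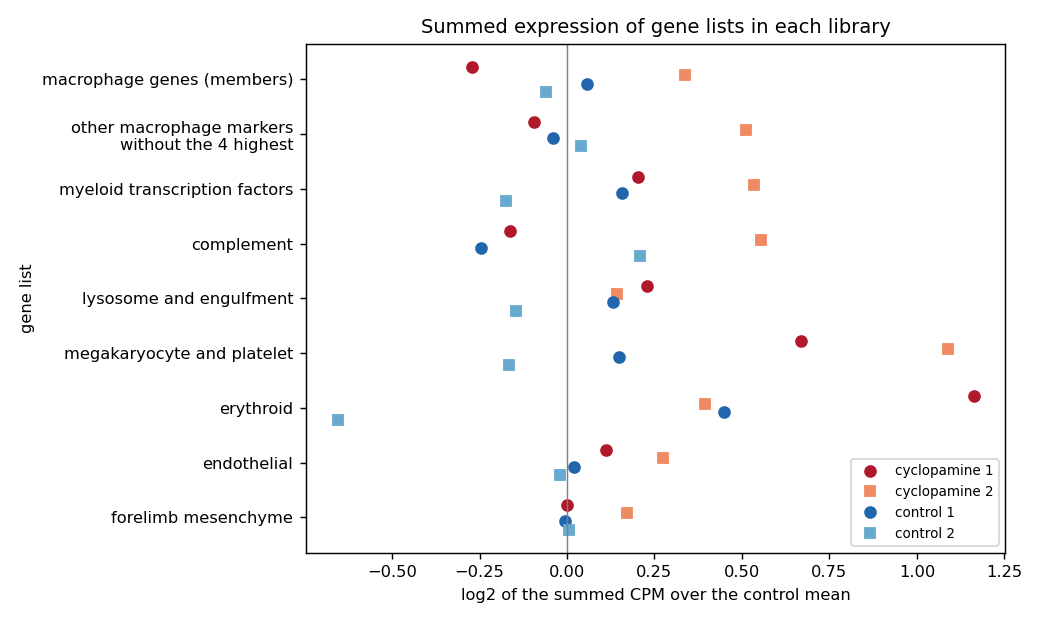
Summed CPM of 9 gene lists in each library, as the log2 ratio to the mean of the 2 controls, with a point per library. For the macrophage members cyclopamine 1 (15.6 CPM) and cyclopamine 2 (23.8 CPM) lie on either side of the controls, whereas for megakaryocyte and platelet genes both cyclopamine libraries (38.7 and 51.7 CPM) lie above both controls (26.9 and 21.7 CPM).

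Markers of other blood and vessel cells were read beside the macrophage genes. The 8 erythroid genes found summed to 2142 and 1259 CPM in cyclopamine and 1307 and 608 CPM in controls, with cyclopamine 1, the lowest library for macrophage genes, the highest. All 8 were higher (median log2 fold change 0.75), beside 6921 higher and 6647 lower over all genes tested. In limma 0 of the 8 passed and 5 had an unadjusted p under 0.05, beside 5.82% of all genes tested. The authors' deposited table gives the erythroid gene Hemgn a false discovery rate of 0.0156. The 9 megakaryocyte and platelet genes summed to 38.7 and 51.7 CPM in cyclopamine and 26.9 and 21.7 CPM in controls. Of these, 5 were tested and 0 passed in limma. All 5 had both cyclopamine libraries above both controls and an unadjusted p under 0.05, beside 16.8% and 5.82% of all genes tested. Rgs18 averaged 0.199 CPM in controls and 2.25 CPM in cyclopamine and reached the filter only through cyclopamine, so the tested set was tilted upward. The authors' deposited table gives Rgs18, of this list, a false discovery rate of 0.00371. Hemgn and Rgs18 were named after their values were seen. Itga2b, an integrin gene of that lineage, measured 6.63 and 9.80 CPM in cyclopamine, against 3.82 and 3.53 CPM in controls (1.039, SE 0.30, limma adjusted p = 0.317). Endothelial genes summed to 470 and 526 CPM in cyclopamine and 441 and 429 CPM in controls, with 7 of 8 higher and 0 called in limma. The 5 blood progenitor genes summed to 104.7 and 102.2 CPM in cyclopamine and to 99.98 and 99.99 CPM in controls. Most of this came from Kit and Cd34, which averaged 46.4 and 44.4 CPM in cyclopamine and 44.2 and 42.5 CPM in controls. The cell types behind Kit and Cd34 were not tested. Granulocyte, mast cell and lymphoid genes were low. The 4 granulocyte and mast cell genes found summed to 1.74 and 3.08 CPM in cyclopamine and 2.27 and 2.64 CPM in controls. The 3 lymphoid genes summed to 1.66 and 2.75 CPM in cyclopamine against 0.516 and 1.47 CPM in controls. The granulocyte gene Prtn3 measured 1.34 and 2.27 CPM in cyclopamine and 1.96 and 1.54 CPM in controls. Its mean of 1.78 CPM lay within the span of the macrophage gene means. The mast cell protease gene Cpa3 had 0 and 2 reads in cyclopamine against 0 and 1 in controls. The part of these cells in the values of Ptprc and Fcer1g, which they also express, was not tested.

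The mean centred profile of the 8 tested genes on the log2(CPM + 0.5) scale was -0.26 in cyclopamine 1 and 0.31 in cyclopamine 2, against -0.004 in control 1 and -0.04 in control 2. Among 10999 other genes averaging at least 5 CPM, the 5 nearest by root mean square difference over the 4 libraries were Zhx3 (0.0106), Camk1g (0.0291), 1600020E01Rik (0.0294), Tox (0.0345) and Caskin2 (0.0353). None of these is in the macrophage lists. A difference under 0.1 was reached by 224 genes.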

How the data were processed

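The deposited expression table holds a normalized signal per gene and library, scaled by the authors to counts per 1000000 of an effective library size, judged from the values. Each value is a whole multiple of what 1 read is worth in that library (100% to a tolerance of 0.01 reads), so reads were recovered. The authors' deposited comparison table lists, per the file headers, each gene's log2 fold change with a p-value, a false discovery rate and an average log2 CPM. Its test is not stated. For the macrophage genes, edgeR's exact test on recovered reads gave the same fold changes and p-values, so it is not separate evidence from that table. The submitters' processing notes name mm10, edgeR 3.4.2, HTSeq 0.5.4p5, TopHat2 2.0.9, SAMtools and Bowtie, without roles. Annotation and strand setting are not stated. Per the labels' protocols, RNA was extracted with TRIzol when culture ended, for SOLiD libraries.

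Differences were tested by limma 3.58.1 (R 4.3.3), fitting an intensity trend to log2(CPM + 0.5) of genes averaging 1 CPM or more, two-sided, with Benjamini-Hochberg adjustment over all genes tested at 0.05. The fit was also run on simulated data, but no outcome of that run is given here. No conclusion about the macrophage genes is drawn from the simulation. Alternatives used edgeR 4.0.16 and DESeq2 1.42.0 on recovered reads. Coordinates, lengths and shared windows come from GENCODE vM21 (GRCm38, the mm10 assembly). Older symbols were matched through RefSeq synonyms. Members and lists were chosen with earlier results of these data known. The rule for naming genes took all members, the called and up to 4 most abundant tested genes of each list, and Gli1 and Ptch1 as treatment checks. Not all genes that the rule takes are named, and some, such as the endothelial ones, appear only in sums and counts. Others are said to be chosen after their values were seen. Pld4, Il34, Sfpi1, Trem2, Fcgr3, Masp1, Cpa3 and Lyz1 were also named after their values were seen. The same holds for C1ra, C2, Ccl3, Ctss, Alox5ap, Cd33, Nr1h3 and Eng. Ptch1 averaged 41.8 ± 13.5 CPM in cyclopamine and 112 ± 6.71 CPM in controls (SD, n = 2 each). A gene that this rule names is not reported here.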

Additional observations from a re-analysis of the deposited data

How the results depend on the processing

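Under all 15 alternatives, 0 macrophage genes were called and 0 had an unadjusted p under 0.05, in limma, edgeR or DESeq2; the smallest adjusted p of any of the 8 was 0.864. A filter of 5 CPM left none of the 10 to test. The number of genes called over the whole table, 38, was 20 on CPM of total reads, 2 without a filter, 0 without the intensity trend, 80 in edgeR's exact test and 351 with a replicate block (186 higher, 165 lower), and ran from 43 to 122 when a library was left out. The count among the related lists, 1, was 0 on CPM of total reads, without a filter, with a filter of 5 CPM and without the trend. It was 4 in edgeR's exact test (C3, Gpnmb, Hemgn and Rgs18) and 13 with the replicate block. Among the 13 were C3, Eng, Fgf10, Gpnmb, Hand2, Hba-x, Hbb-y, Hbb-bh1, Hemgn, Itga2b, Ppbp and Rgs18. Same-numbered libraries deviated together across genes (r = 0.274), but the labels tie the number to nothing shared. The median log2 fold change of the tested members ran from -0.11 to 0.38 and the log2 ratio of their sum from -0.27 to 0.34 when a library was left out; the sum was 0.002 without Ptprc and Lyz2. Lyz2 was positive at 0.175, 0.178 and 0.181 in edgeR's quasi-likelihood and exact tests and in DESeq2. With a library left out, Csf1r ran from -0.36 to 0.084, Cx3cr1 from -0.025 to 0.42 and C1qb from -0.26 to 0.015 in limma. C1qc ran from -0.18 to 0.43, Lyz2 from -0.071 to 0.71 and Ptprc from -0.46 to 1.05. A single remaining library was assumed to vary like the other group. Without cyclopamine 2, its highest library, Lyz2 was under the filter and was not fitted, so its range leaves that setting out. The median of -0.11 in that setting was over 7 genes. The cause of these shifts was not tested. The members had 22 to 219 reads each over the 4 libraries, and depth, 2 libraries per group and the spread between them all limit these tests; their shares were not separated.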
